A study of Mus musculus with 233 samples.

Results

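The genes for the subunits, activators, inhibitor and assembly chaperones of the proteasome were followed through the striatum of a mouse model of Huntington's disease. The members were the protein-coding genes whose symbols start with Psma, Psmb, Psmc, Psmd, Psme, Psmf or Psmg followed by a digit, and 50 of the 41129 gene entries of the count table met this rule. A further 4 entries with such symbols were pseudogenes (Psmb6-ps2, Psmb5-ps, Psmb6-ps and Psmb7-ps2) and were left out. No expression value entered the rule. One member, Psmc3ip, is not a proteasome subunit: it was named for its interaction with a 19S ATPase and acts in meiotic recombination, and it is kept because the rule takes it.

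The proteasome is the protease that degrades ubiquitin-tagged proteins in all cells. Its 20S core is a barrel of alpha rings, which gate the entrance, and beta rings, which hold the cutting sites. The 19S cap recognises and unfolds substrates with a ring of ATPases and a set of non-ATPase subunits, while the 11S rings and PA200 are caps that open the core without ATP. Interferons induce alternative catalytic subunits, which form the immunoproteasome, and the 11S genes Psme1 and Psme2. Aggregates of mutant huntingtin in neurons contain ubiquitin.

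RNA of 233 striatal samples from 120 mice was sequenced, each sample being the striatum of 1 hemisphere. The model was the heterozygous zQ175 mouse (zQ175DN or zQ175KI in the labels), in which exon 1 of mouse Htt is replaced by human HTT exon 1 with a long CAG repeat, and it was set against wild-type (WT) littermates. Each hemisphere received 1 of 3 adeno-associated viruses (AAV): nZFP, which carries the HA-tagged zinc finger repressor ZFP30645 that targets expanded CAG tracts and is expressed from the human synapsin promoter, which is active in neurons; DBD, which carries the same protein without its DNA-binding domain from that promoter; or Estop, whose stuffer encodes no protein. The age at injection was 2 or 6 months. Each paradigm carries the ages at injection and at collection in its name: 2M_6M (4 months of treatment), 2M_8M (6 months), 6M_8M (2 months), 6M_10M (4 months) and 6M_12M (6 months). The 5 paradigms, 2 genotypes and 3 viruses made 30 groups of 6 to 8 libraries from both sexes. All mice were injected, and 113 of them gave 2 libraries with different viruses. WT mice lack the expanded allele that the repressor is aimed at. The repressor is driven in neurons, whereas the RNA came from all cells of the tissue, in which fewer cells of a type and less RNA per cell cannot be told apart. Lists of 5 values follow the order of the paradigms given above.

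Libraries held 28.0 to 61.3 M gene counts (median 37.4 M). The repressor sequence had a median of 595 CPM (counts scaled to library size) in 77 nZFP libraries, against medians of 8.26 CPM in 75 libraries of DBD and 10.6 CPM in the 77 of Estop. Vector sequences in the other 4 libraries went against their labels. By the repressor sequence these were WT DBD R7 and R8 of 6M_8M (321 and 480 CPM; R marks the replicate number) and zQ175 nZFP R5 of 6M_8M (8.55 CPM). The fourth, WT DBD R6 of 2M_6M, had 10.8 CPM of the repressor sequence, within the range of DBD, and was set aside for the vector element WPRE, at 59.2 CPM, against at least 122 CPM in the other DBD libraries and at most 114 CPM in Estop. Another 3 libraries stood apart by low counts of long transcripts: zQ175 nZFP R2 and WT DBD R2 of 6M_10M, and zQ175 DBD R3 of 2M_6M. Some effects of the main members in the paradigms that hold these 7 libraries are also given without them. Within groups, no pair of libraries came within the sampling noise of each other.

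The promoters of 4 interferon-inducible members are shown first, because Psme1 and Psmb10 are among them. These 2 genes rose in zQ175 under DBD in the most paradigms below. Without the index used below, Psme2 was called higher in 1 paradigm, Psmb9 lower in 1 and Psmb8 in 0. The sequence of Psmb8 is not printed. Each sequence runs from 250 bases before to 50 bases after the start of the RefSeq gene, 5′ to 3′ on the gene's own strand, in build GRCm38.p6. Psme1 (chr14:55578244-55578543, plus strand) and Psme2 (chr14:55591052-55591351, minus strand) are neighbours, as are Psmb9 (chr17:34187281-34187580, minus strand) and Psmb8 in the major histocompatibility complex. Psmb10 lies at chr8:105938343-105938642 on the minus strand. Capitals mark matches, on either strand, to a core of the interferon-stimulated response element, which is a GAAA followed by NN and a further GAAA, or to CCAAT, the box bound by the factor NF-Y.
Psme1: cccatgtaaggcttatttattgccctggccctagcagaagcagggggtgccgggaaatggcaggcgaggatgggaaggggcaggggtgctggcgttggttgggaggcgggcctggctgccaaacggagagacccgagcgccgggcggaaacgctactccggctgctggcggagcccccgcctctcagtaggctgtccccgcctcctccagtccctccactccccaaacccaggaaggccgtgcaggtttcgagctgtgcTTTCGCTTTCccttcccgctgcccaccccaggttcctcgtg
Psme2: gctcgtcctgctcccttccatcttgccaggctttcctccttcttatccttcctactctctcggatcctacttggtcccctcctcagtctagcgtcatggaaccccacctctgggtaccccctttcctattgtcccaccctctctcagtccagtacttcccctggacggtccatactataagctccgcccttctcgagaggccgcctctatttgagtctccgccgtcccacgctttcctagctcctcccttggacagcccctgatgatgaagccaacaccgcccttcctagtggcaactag
Psmb10: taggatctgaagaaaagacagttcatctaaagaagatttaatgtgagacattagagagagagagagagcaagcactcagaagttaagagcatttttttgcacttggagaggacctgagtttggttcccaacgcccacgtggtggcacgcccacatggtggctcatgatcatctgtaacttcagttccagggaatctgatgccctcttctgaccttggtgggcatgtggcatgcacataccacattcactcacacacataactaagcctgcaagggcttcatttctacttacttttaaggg
Psmb9: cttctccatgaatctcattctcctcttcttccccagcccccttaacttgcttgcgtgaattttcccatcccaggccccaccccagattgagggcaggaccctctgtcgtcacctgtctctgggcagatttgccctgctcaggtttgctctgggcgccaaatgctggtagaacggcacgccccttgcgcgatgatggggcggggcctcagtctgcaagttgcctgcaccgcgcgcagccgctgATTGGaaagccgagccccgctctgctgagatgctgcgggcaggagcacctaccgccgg

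The window of Psme1 held the interferon-stimulated core on the reverse strand, while those of Psme2, Psmb8, Psmb9 and Psmb10 did not hold its letters. Of the 42 members with a window, 5 held it (Psmb3, Psmd4, Psmd9, Psme1 and Psmg4), against 3.44% of all 32851 promoter windows. CCAAT was found in 15 members, Psmb9 among them, and in 37.4% of all windows. The core of the antioxidant response element, TGACNNNGC, to which NRF1 and NRF2 can bind, was found in 6 members (Psmb5, Psmb6, Psmc6, Psmd9, Psmd12 and Psme4) and in 12.4% of all windows. A match describes letters only.

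Genes of the core and cap held the 30 highest places among the 50 members, and the testis and thymus subunits Psma8 and Psmb11 were the lowest. Levels between genes are compared in TPM, a unit that corrects for transcript length and depth, as the mean of the 30 group means. The highest member was Psmc5, a 19S ATPase, at 338 TPM (group means 293 to 453). It was followed by the structural beta subunit Psmb4 at 314 TPM, the catalytic subunit Psmb6 at 292 TPM, the beta subunit Psmb1 at 252 TPM and the alpha subunit Psma6 at 250 TPM. The ranges of group means of neighbours in this order overlapped, that of Psmb4 being 279 to 384 TPM.

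The class medians over genes were 245 TPM for the 3 constitutive catalytic subunits, 198 TPM for the 4 structural beta subunits, 162 TPM for the 6 ATPases, 150 TPM for the 7 alpha subunits and 116 TPM for the 11 non-ATPase subunits of the cap. Subunits of 1 ring had unequal levels: the alpha subunits spanned 110 TPM (Psma5) to 250 TPM (Psma6), and the ATPases 83.7 TPM (Psmc6) to 338 TPM (Psmc5). Among the non-ATPase subunits Psmd2, a scaffold that binds ubiquitin receptors, was highest at 210 TPM and Psmd11 lowest at 37.8 TPM. The chaperones that help build the core (Psmg1 to Psmg4) had a median of 22.6 TPM, and those that help build the cap (Psmd5, Psmd9 and Psmd10) one of 42.0 TPM.

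Of the activators, Psme3, which forms the nuclear 11S ring, had 75.9 TPM, Psme2 58.4 TPM and Psme1 55.8 TPM, while Psme4, which encodes PA200, had 8.15 TPM. The inhibitor gene Psmf1 (PI31) had 22.6 TPM and Psmc3ip 9.86 TPM. Among the immunoproteasome subunits Psmb10 had 21.1 TPM, Psmb8 10.6 TPM and Psmb9 3.23 TPM. The testis subunit Psma8 had 0.405 TPM and the thymus subunit Psmb11 0.00546 TPM. Psmb11 was the only member removed by the filter on low counts, so that 49 members were tested. Psme2b, at 0.967 TPM, is a near copy of Psme2, and its counts are uncertain because reads may be divided between them.

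**Figure D1:**
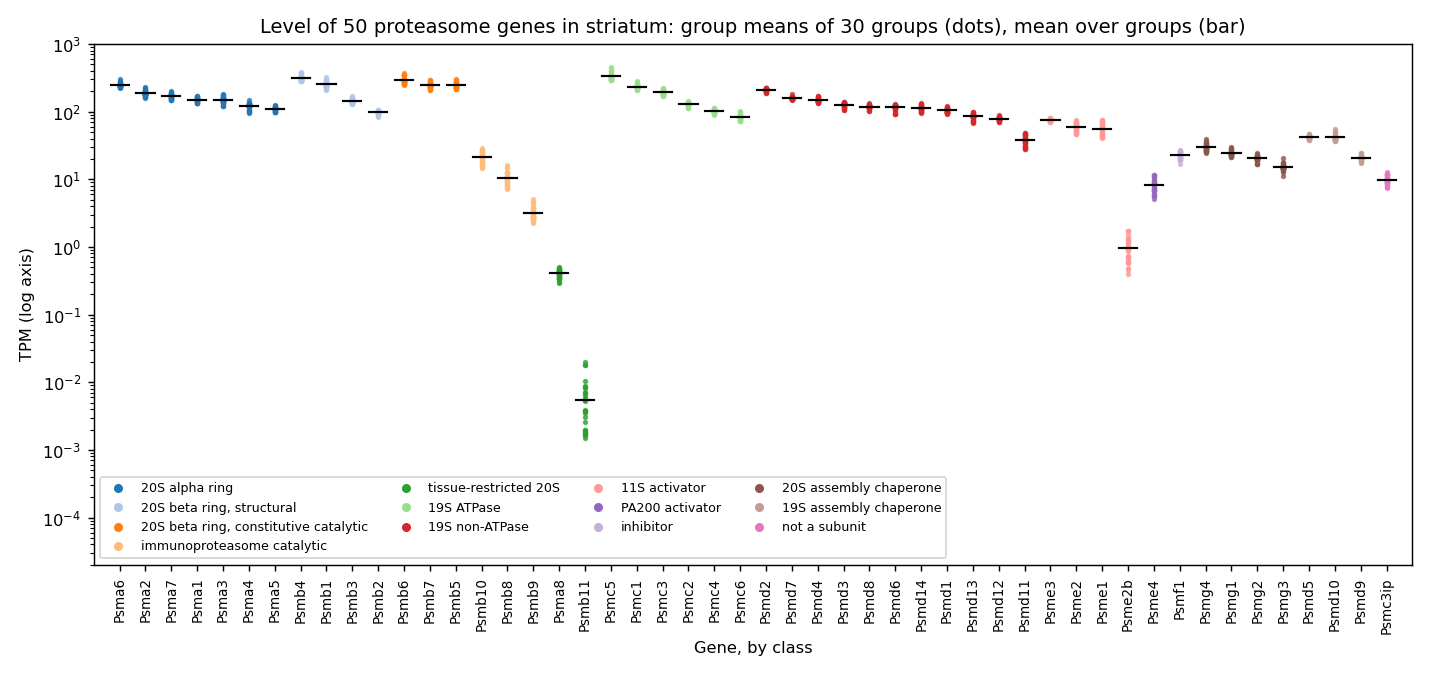
Level of the 50 members in TPM on a log axis, grouped by class; each dot is the mean of 1 of 30 groups (6 to 8 libraries each) and the bar is the mean over groups, while groups in which Psmb11 was at 0 have no dot. Apart from Psmd11, core and cap genes lie between 78.7 and 338 TPM, and immunoproteasome genes between 3.23 and 21.1 TPM.

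Class sums were compared between the groups. The alpha ring had 1304 TPM in WT nZFP 2M_8M, against 1011 TPM in WT DBD 6M_12M, which is 1.29 times as much. The same ratio of the highest to the lowest group was 1.33 for the structural and 1.37 for the constitutive catalytic beta subunits, 1.28 for the ATPases, 1.21 for the non-ATPase subunits and 1.33 for the 11S activators. For the immunoproteasome subunits it was 1.86, with 46.1 TPM in zQ175 Estop 6M_8M, against 24.8 TPM in WT Estop 2M_6M. These ranges include the spread between libraries and were not tested.

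The level of most members moved with 1 property of the library. A length index was computed for each library as the median log2 deviation of long genes (at least 7136.75 exonic bases) minus that of short genes (at most 3005 bases), without the members. It ran from −1.21 to 0.443. In 1 fit of all groups, 45 of the 49 tested members fell with a rising index and 4 rose (adjusted p under 0.05, edgeR quasi-likelihood test), where 79.2% of all 16795 genes passed, 39.1% lower and 40.1% higher. The members' median slope was −0.69 log2 units per unit of index, against −0.00 for all genes. By its construction, short genes as a set fall as the index rises, and many members are short by the limit above. Their slopes were not compared with those of other genes of like length, so whether the fall is particular to the members was not tested. The steepest were those of the chaperone Psmg4 (−1.26 ± 0.04, SE) and the catalytic subunit Psmb5 (−1.07 ± 0.02). The 4 rising members were Psmf1 (0.18 ± 0.03), Psmd11 (0.36 ± 0.04), Psme4 (0.60 ± 0.05) and Psme2b (0.95 ± 0.21). Psmf1, Psmd11 and Psme4 have 6441, 6383 and 8382 exonic bases, and Psme2b has 837. Psmg4 and Psmb5 have 555 and 899. Length alone did not order the slopes. Psmd1, Psmd5 and Psmd9 have 7265, 7230 and 7248 bases, above the limit for long genes. They fell with a rising index (−0.25 ± 0.02, −0.25 ± 0.03 and −0.50 ± 0.03). What sets the index was not tested, and the comparisons are given without the index and adjusted for it.

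**Figure D2:**
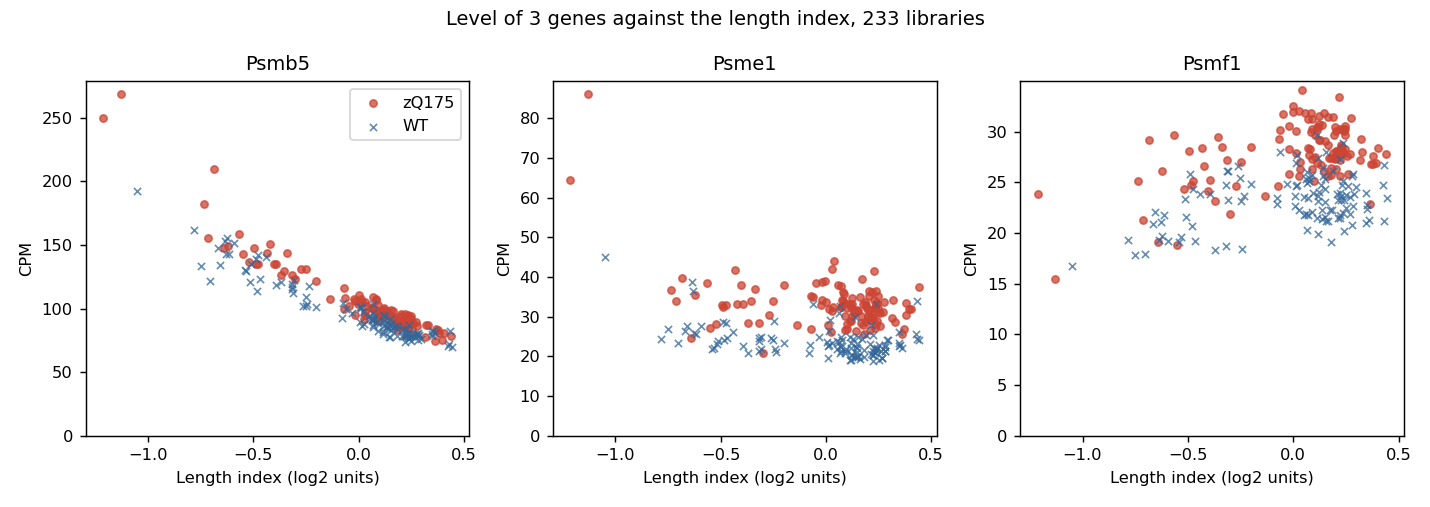
Psmb5, Psme1 and Psmf1 (CPM) against the length index (log2 units) in 233 libraries, with zQ175 as dots and WT as crosses. Psmb5 falls as the index rises, and the zQ175 dots of Psme1 and Psmf1 lie mostly above the WT crosses along the axis.

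The comparison of zQ175 with WT striatum under DBD asks how the expanded allele moves these genes. The 11S activator gene Psme1 and the immunoproteasome gene Psmb10 rose in the most paradigms, while most genes of the core and cap were not called. The members called (adjusted p under 0.05) numbered 14 higher and 0 lower in 2M_6M, where 28.7% of all genes tested were called, and 2 higher in 2M_8M (18.7% of all genes). They numbered 3 higher in 6M_8M (9.12%), 2 higher and 1 lower in 6M_10M (24.2%) and 2 higher in 6M_12M (18.3%). The share of members called was close to that of all genes in 2M_6M and below it in the other paradigms. The members' median log2 fold change was 0.24, −0.03, 0.05, −0.09 and −0.01, against 0.03, −0.00, 0.01, −0.01 and 0.00 for all genes.

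Psme1 encodes PA28 alpha, which pairs with the Psme2 product in the 11S ring. In 2M_6M its lowest, median and highest values were 31.5, 35.1 and 86.0 CPM in zQ175 DBD, against 20.5, 23.8 and 24.8 CPM in WT DBD. In 6M_12M they were 27.6, 32.8 and 34.0 CPM in zQ175 DBD, against 20.2, 22.4 and 24.6 CPM in WT DBD. The groups did not overlap in either paradigm. In 2M_8M the values were 27.2, 33.1 and 38.9 CPM in zQ175 DBD, against 20.4, 25.3 and 28.6 CPM in WT DBD. In 6M_8M they were 30.4, 34.0 and 44.1 CPM in zQ175 DBD, against 21.0, 25.1 and 33.8 CPM in WT DBD, and in 6M_10M 28.6, 31.8 and 42.1 CPM in zQ175 DBD, against 19.4, 22.2 and 45.0 CPM in WT DBD. In these 3 paradigms the groups overlapped, in 6M_10M through WT DBD R2 alone, whose length index was −1.05.

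The log2 fold change of Psme1 was 0.81 ± 0.14 in 2M_6M, 0.40 ± 0.08 in 2M_8M, 0.34 ± 0.11 in 6M_8M, 0.31 ± 0.15 in 6M_10M and 0.41 ± 0.09 in 6M_12M (SE), and all but 6M_10M passed (adjusted p = 0.14 there, edgeR). With the length index all 5 passed, at 0.53 ± 0.06, 0.43 ± 0.06, 0.29 ± 0.08, 0.48 ± 0.04 and 0.44 ± 0.05. Without the libraries that stood apart, the change was 0.47 ± 0.06 in 2M_6M and 0.50 ± 0.07 in 6M_10M. Without the libraries that went against their labels, Psme1 rose in 6M_8M by 0.46 ± 0.11. In that fit 6 members were called, and the share of all genes called is not given for it. Under Estop in place of DBD, with the index, Psme1 also passed in all 5, between 0.34 and 0.63. The gene Emc9 overlaps an exon of Psme1 on the opposite strand and averaged 16.5 CPM. Emc9 rose in 2M_6M (0.37 ± 0.13) and, with the index, in 6M_12M (0.21 ± 0.08), and how the authors' counting used the strand is not given in the sources used here.

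Psmb10 encodes the inducible trypsin-like subunit that replaces the Psmb7 product. In 2M_6M it had 11.2, 13.8 and 58.5 CPM (lowest, median, highest) in zQ175 DBD, against 8.85, 9.12 and 9.50 CPM in WT DBD, and the groups did not overlap. The highest zQ175 value was that of R3, and the next was 15.5 CPM. In 2M_8M the values were 12.3, 14.8 and 20.4 CPM in zQ175 DBD, against 8.21, 11.2 and 14.6 CPM in WT DBD, and in 6M_12M 10.2, 15.4 and 21.8 CPM in zQ175 DBD, against 6.33, 9.82 and 13.3 CPM in WT DBD, with overlap in both. The log2 fold changes were 1.10 ± 0.22, 0.40 ± 0.14, 0.28 ± 0.14, 0.20 ± 0.21 and 0.60 ± 0.18, of which the first, the second and the last passed. With the index they were 0.56 ± 0.09, 0.45 ± 0.06, 0.24 ± 0.11, 0.44 ± 0.07 and 0.68 ± 0.07, and all but 6M_8M passed. Without R3 the change in 2M_6M was 0.46 ± 0.08. Without WT DBD R2 that in 6M_10M was 0.44 ± 0.10, which passed. That in 6M_8M was 0.36 ± 0.15 (adjusted p = 0.087) without the libraries that went against their labels.

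**Figure D3:**
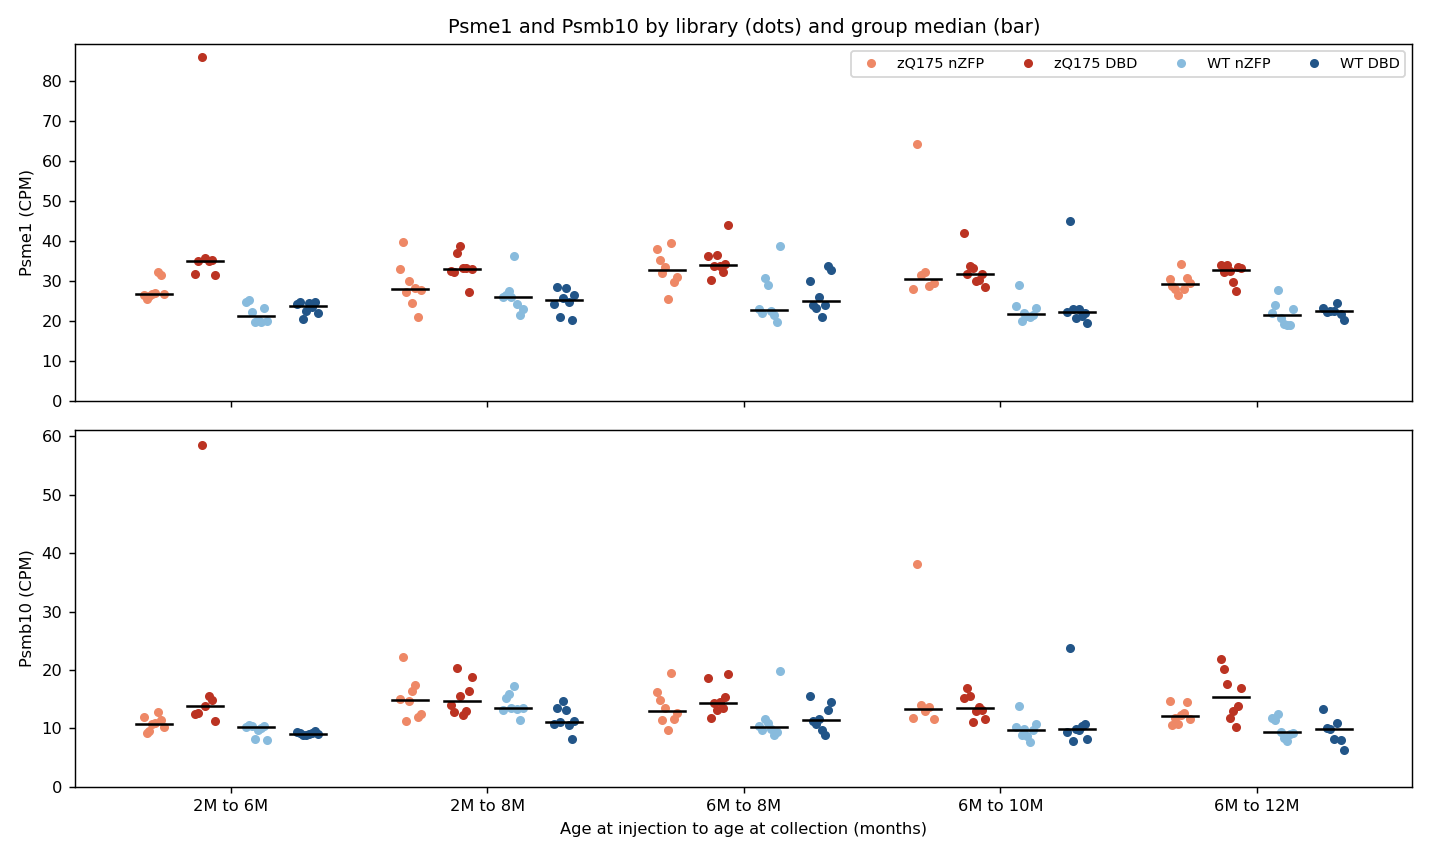
Psme1 and Psmb10 (CPM) in each library of the zQ175 nZFP, zQ175 DBD, WT nZFP and WT DBD groups of the 5 paradigms; dots are libraries and bars are group medians. The medians of Psme1 lie between 31.8 and 35.1 CPM in zQ175 DBD, against 22.2 to 25.3 CPM in WT DBD, and the libraries that stood apart are the isolated high points of 2M_6M and 6M_10M.

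The other inducible members were called in fewer paradigms. Psmb8 was not called in any paradigm (adjusted p 0.10 to 0.86), nor was Psmb9 outside 6M_10M. In 6M_10M Psmb9 had 1.17, 1.35 and 1.77 CPM (lowest, median, highest) in zQ175 DBD, against 1.51, 2.00 and 3.77 CPM in WT DBD, and it fell by 0.75 ± 0.19 on the log2 scale, or by 0.65 ± 0.17 without the libraries that stood apart. Under Estop in 6M_10M its change was −0.09 ± 0.19 (adjusted p = 0.82). Tap1 overlaps an exon of Psmb9 on the opposite strand and was not called in any paradigm. Psme2, the partner of Psme1, rose in 2M_6M only, by 0.66 ± 0.17, or 0.20 ± 0.07 without R3. With the index Psme2 rose in all but 6M_8M, by 0.28 ± 0.07, 0.32 ± 0.05, 0.25 ± 0.04 and 0.37 ± 0.05.

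The level of Psmb10 relative to the constitutive Psmb7 had a higher mean in zQ175 in every paradigm. As a percentage in TPM, Psmb10 averaged 9.75 ± 2.27, 9.07 ± 0.790, 10.7 ± 1.37, 9.49 ± 1.19 and 10.4 ± 1.17 of Psmb7 in zQ175 DBD (SD, n = 7, 8, 8, 8 and 8), against 6.66 ± 0.370, 7.30 ± 0.737, 9.33 ± 1.15, 7.39 ± 0.968 and 7.01 ± 1.10 in WT DBD (n = 8, 8, 8, 8 and 7). The difference of the means exceeded either SD in each paradigm, by least in 6M_8M, and the ratio was not tested. Psmb8 relative to Psmb5 had a lower mean in zQ175 in every paradigm, under Estop as well as DBD. Under DBD it averaged 2.83 ± 0.785, 3.23 ± 0.392, 5.41 ± 1.37, 3.57 ± 0.592 and 4.30 ± 1.11% in zQ175, against 3.51 ± 0.653, 4.06 ± 0.896, 7.52 ± 2.20, 4.74 ± 1.58 and 4.84 ± 0.697% in WT (SD, n as above), and under DBD the difference exceeded both SDs in no paradigm. Under Estop it exceeded both SDs in 2M_8M and 6M_10M only. The means there were 3.13 ± 0.436 and 2.96 ± 0.649% in zQ175 Estop, against 4.17 ± 0.273 and 4.06 ± 1.03% in WT Estop. Psmb9 relative to Psmb6 averaged 0.924 ± 0.165, 0.877 ± 0.155, 1.42 ± 0.297, 0.881 ± 0.197 and 0.936 ± 0.148% in zQ175 DBD, against 1.01 ± 0.186, 0.923 ± 0.141, 1.87 ± 0.581, 1.27 ± 0.479 and 0.790 ± 0.164% in WT DBD, which was lower in zQ175 in all but 6M_12M.

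Without the index the constitutive catalytic genes Psmb5 and Psmb7 rose in 2M_6M only, by 0.40 ± 0.15 and 0.41 ± 0.14. Psmb6 was not called there (0.31 ± 0.16). Psmb5 had 86.3, 99.3 and 269 CPM in zQ175 DBD of 2M_6M, against 81.8, 91.6 and 116 CPM in WT DBD, and its top value was that of R3, which had an index of −1.13. Without R3 its change was 0.03 ± 0.07, and that of Psmb7 was 0.04 ± 0.06. The other members called higher in 2M_6M were the alpha subunits Psma2, Psma3 and Psma5, the beta subunit Psmb1, the cap subunits Psmd8 and Psmd13, the chaperones Psmd9 and Psmg3, and Psmc3ip, by 0.24 to 0.60. No 19S ATPase was called in this paradigm. Without R3, 5 members were higher and 1 lower (Psmb10, Psmc3ip, Psme1, Psme2 and Psmf1, against Psmc5). The share of all genes called is not given for that fit.

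With the length index as a covariate the comparison under DBD gave 6 and 2 members higher and lower in 2M_6M (28.7% of all genes), 11 and 0 in 2M_8M (34.2%), 4 and 0 in 6M_8M (13.4%), 10 and 3 in 6M_10M (39.0%) and 10 and 1 in 6M_12M (35.1%). In no paradigm was the share of members called above that of all genes. The PA200 gene Psme4 rose in 2M_8M (0.24 ± 0.05) and 6M_12M (0.21 ± 0.08). The inhibitor gene Psmf1 rose in 6M_8M and 6M_10M in both fits, by 0.29 ± 0.07 and 0.32 ± 0.05 without the index. Without the libraries set aside these changes were 0.33 ± 0.08 and 0.27 ± 0.05. In 6M_10M it had 26.3, 30.5 and 32.5 CPM in zQ175 DBD, against 16.8, 23.4 and 25.6 CPM in WT DBD, without overlap. The cap subunit gene Psmd1 also rose there without the index (0.11 ± 0.04). Psmc3ip rose in 2M_6M and 6M_8M without the index (0.60 ± 0.15, or 0.28 ± 0.09 without R3, and 0.29 ± 0.09, or 0.38 ± 0.09 without the libraries against their labels) and in all 5 with it (0.24 to 0.37). The gene Mlx overlaps its exons on the opposite strand and was not called in either fit. No structural beta subunit was called with the index. The constitutive catalytic genes Psmb5 and Psmb7 were called higher in 2 paradigms each, and Psmb6 in none. Over the 5 paradigms the changes of Psmb5 were 0.06 to 0.15 and those of Psmb7 0.04 to 0.13. Among the ATPases, Psmc1 fell in 2M_6M, 6M_10M and 6M_12M by 0.15 ± 0.05, 0.10 ± 0.03 and 0.15 ± 0.05, and Psmc5 in 2M_6M and 6M_10M by 0.16 ± 0.05 and 0.11 ± 0.03. Other ATPases went the other way in this fit: Psmc4 was called higher in 2 paradigms, and Psmc3 and Psmc6 in 1 each.

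**Figure D4:**
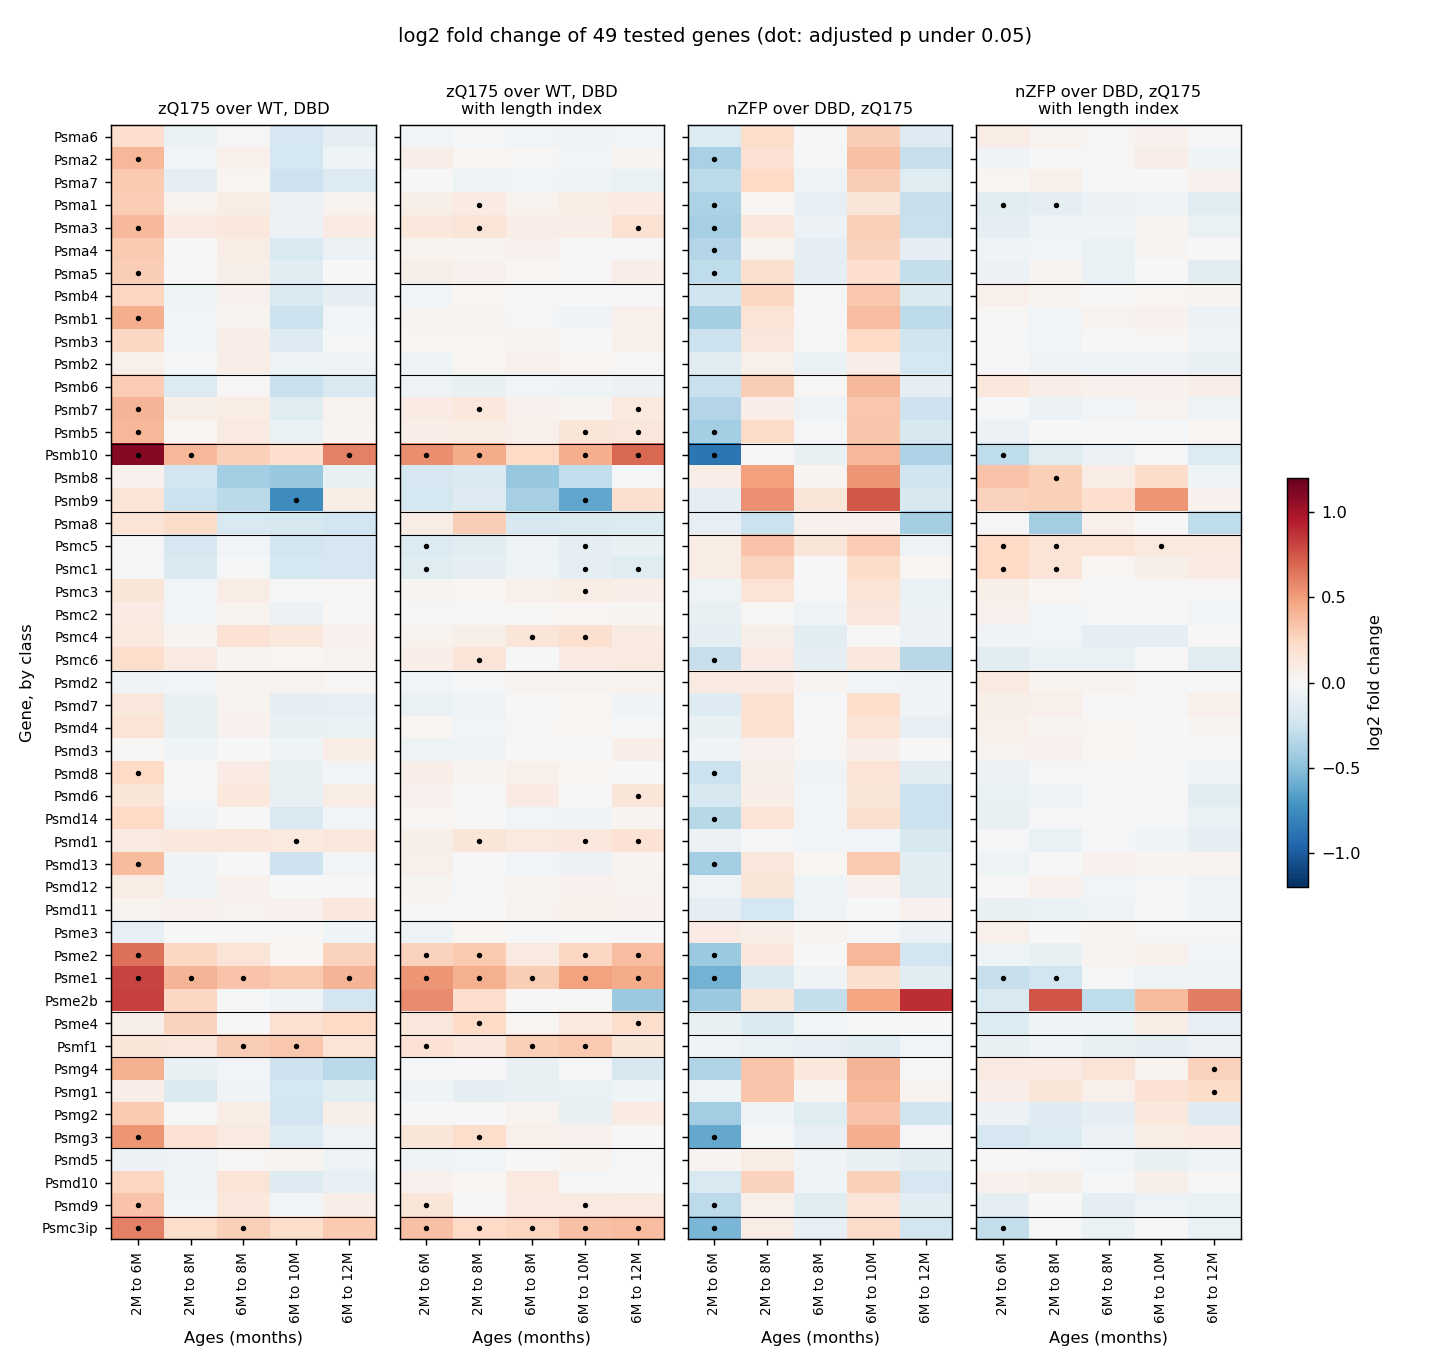
log2 fold change (colour) of the 49 tested members by paradigm, for zQ175 over WT under DBD and nZFP over DBD in zQ175, each without the length index and adjusted for it; dots mark an adjusted p under 0.05. Psme1 and Psmc3ip have dots in all 5 paradigms of zQ175 over WT with the index, and the broad colour of the nZFP panel in 2M_6M and 6M_10M is paler with it.

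Averaged over the 5 paradigms in the fit of all 30 groups, 8 members were higher and 3 lower in zQ175 under DBD, where 46.9% of all genes were called. Psmb10 rose by 0.50 ± 0.08, Psme1 by 0.44 ± 0.05, Psmc3ip by 0.31 ± 0.06, Psme2 by 0.26 ± 0.07 and Psmf1 by 0.20 ± 0.03. Psmb8 fell by 0.24 ± 0.10, Psmc5 by 0.15 ± 0.05 and Psmc1 by 0.14 ± 0.04, and Psmb9 was at −0.23 ± 0.11 (adjusted p = 0.068). Under Estop 7 were higher and 3 lower (46.5% of all genes), with Psmb10 at 0.50 ± 0.08 and Psme1 at 0.45 ± 0.05. With the index the counts were 18 higher and 7 lower under DBD (56.9% of all genes) and 14 and 10 under Estop (56.6%).

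Under the repressor, zQ175 nZFP was compared with WT nZFP. The members higher and lower numbered 0 and 0 in 2M_6M (1.54% of all genes called), 0 and 2 in 2M_8M (6.67%), 1 and 3 in 6M_8M (17.1%), 7 and 0 in 6M_10M (19.6%) and 1 and 2 in 6M_12M (16.7%). In 2M_6M, 2 members had an unadjusted p under 0.05 under edgeR and DESeq2 called 0. Here and below, the share of all genes at an unadjusted p is not given. Such a count therefore does not set the members apart from other genes. Psme1 rose in 6M_10M by 0.66 ± 0.16, or 0.34 ± 0.08 without the libraries that stood apart, and in 6M_12M by 0.32 ± 0.09. In 6M_12M it had 26.5, 29.2 and 34.2 CPM in zQ175 nZFP, against 19.0, 21.4 and 27.7 CPM in WT nZFP. Without the index Psmf1 rose in 6M_8M and 6M_10M, and Psmb10, Psme2, Psma3, Psmc3ip and Psmd1 in 6M_10M alone. Psmb10 was at 0.29 ± 0.11 in 6M_10M without the libraries that stood apart (adjusted p = 0.049). Psme2 (0.19 ± 0.08), Psma3 (0.09 ± 0.07) and Psmc3ip (0.20 ± 0.11) were then not called.

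Psmc1 fell in zQ175 nZFP in 6M_8M and 6M_12M, by 0.28 ± 0.09 and 0.34 ± 0.09. Psmc5 and Psma7 fell in 6M_8M, the cap subunit Psmd12 in 6M_12M, and Psma4 and Psmc2 in 2M_8M. Without the libraries against their labels, Psma7 was not called in 6M_8M (−0.25 ± 0.10) and Psme1 was (0.33 ± 0.10). With the index the counts higher and lower were 1 and 0 (4.25% of all genes), 3 and 5 (18.0%), 3 and 1 (18.0%), 11 and 2 (32.9%) and 4 and 3 (26.9%), and Psme1 rose in all but 2M_8M. In this fit Psmb10 rose in 4 paradigms, and Psme2 and Psmb5 in 3 each, while Psmc1 and Psmc5 fell in 3 each. Over the 5 paradigms Psme1 rose by 0.33 ± 0.05, Psmb10 by 0.27 ± 0.08 and Psmf1 by 0.18 ± 0.03, and Psmc5 fell by 0.18 ± 0.05 and Psmc1 by 0.17 ± 0.04, with 4 members higher and 3 lower (36.4% of all genes). With the index, 8 were higher and 4 lower (44.3%).

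The repressor was compared with DBD in zQ175 striatum to ask how these genes differ under the virus aimed at the expanded allele. The level of Htt is not given here, so the extent of silencing is not shown. In 2M_6M 0 members were higher and 16 lower, and 23.2% of all genes were called. No member was called in 2M_8M (7.06% of all genes), 6M_8M (0.112%), 6M_10M (0.972%) and 6M_12M (1.25%). In these, 7, 1, 13 and 7 members had an unadjusted p under 0.05 under edgeR and DESeq2 called 0, 0, 1 and 0. The share of all genes at an unadjusted p is not given beside these counts. The members' median change was −0.24, 0.12, −0.03, 0.22 and −0.14, against −0.04, 0.00, −0.01, 0.01 and 0.00 for all genes. These comparisons share their DBD libraries with the genotype comparison. Effects in 6M_8M and 6M_10M without the libraries set aside are not given for the repressor in zQ175. The change of Psmb10 ran from −0.87 to 0.40 over the 5 paradigms without the index, and from −0.30 to −0.02 with it.

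In 2M_6M Psmb10 had 9.17, 10.8 and 12.8 CPM (lowest, median, highest) in zQ175 nZFP, against 11.2, 13.8 and 58.5 CPM in zQ175 DBD, and fell by 0.87 ± 0.22. Psme1 had 25.5, 26.7 and 32.4 CPM in zQ175 nZFP, against 31.5, 35.1 and 86.0 CPM in zQ175 DBD, and fell by 0.57 ± 0.14. The groups overlapped for both genes. Without R3 Psmb10 fell by 0.24 ± 0.08 (adjusted p = 0.047, edgeR) and Psme1 by 0.24 ± 0.06, and the changes of Psmb5 and Psme2 were −0.05 ± 0.07 and −0.00 ± 0.07. In that fit 2 members were higher and 2 lower, and the share of all genes called is not given for it. With the mouse as a block, no member was called in 2M_6M, with Psme1 at −0.38 ± 0.15 (adjusted p = 0.16). Against Estop none was called either, with Psme1 at −0.22 ± 0.13 and Psmb10 at −0.22 ± 0.21. The other members that fell in the fit against DBD were the alpha subunits Psma1 to Psma5, the catalytic Psmb5, the activator Psme2, Psmc6, Psmd8, Psmd13 and Psmd14 of the cap, the chaperones Psmd9 and Psmg3, and Psmc3ip, by 0.25 to 0.61.

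With the index, the repressor in zQ175 gave 2 and 4 members higher and lower in 2M_6M (17.8% of all genes), 3 and 2 in 2M_8M (13.6%), 0 and 0 in 6M_8M (0.212%), 1 and 0 in 6M_10M (2.70%) and 2 and 0 in 6M_12M (4.03%). Psme1 fell by 0.28 ± 0.06 in 2M_6M and by 0.23 ± 0.06 in 2M_8M. The ATPase gene Psmc5 rose in 2M_6M, 2M_8M and 6M_10M, by 0.24 ± 0.05, 0.16 ± 0.06 and 0.12 ± 0.03, and Psmb8 rose in 2M_8M by 0.28 ± 0.09. With the mouse as a block as well, the calls of Psme1 stood in both paradigms and those of Psmc5 in 2M_6M and 2M_8M. Psmc5 in 6M_10M (0.11 ± 0.05, adjusted p = 0.29) and Psmb8 in 2M_8M (0.23 ± 0.10, adjusted p = 0.10) were not called. Over the 5 paradigms, without the index, Psmc5 (0.17 ± 0.05), the chaperone Psmg1 (0.16 ± 0.06) and Psmc1 (0.13 ± 0.04) rose and 0 members fell (16.7% of all genes). With it 6 rose and 11 fell (27.6%), and those that fell included Psmb10 by 0.16 ± 0.04 and Psme1 by 0.14 ± 0.03.

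In WT striatum, the repressor over DBD gave 3 members higher in 2M_8M (2.99% of all genes called), Psma4, Psmc1 and Psmd7, and 1 higher in 6M_8M (0.581%), Psmc5. None was called in 2M_6M (0.268%), 6M_10M (0.480%) and 6M_12M (0.238%), where 0 members had an unadjusted p under 0.05 under edgeR and DESeq2 called 0. Psmc5 in 6M_8M had 177, 200 and 278 CPM in WT nZFP, against 156, 169 and 205 CPM in WT DBD, with overlap, and rose by 0.35 ± 0.07. Without the libraries that went against their labels it rose by 0.39 ± 0.07. It was not called with the mouse as a block (0.28 ± 0.07, adjusted p = 0.18) or over Estop (0.18 ± 0.07, adjusted p = 0.41). Over the 5 paradigms Psmc5 rose by 0.20 ± 0.05, Psmc1 by 0.17 ± 0.04 and Psmd12 by 0.12 ± 0.03 (3.27% of all genes), and with the index 7 members rose (6.85%). The WT nZFP group of 2M_8M had the lowest mean length index of all groups, and with the index 1 member was called there (1.78%). In the other paradigms, with the index, the counts were 0, 1, 1 and 0 (0.542%, 0.419%, 2.54% and 0.895%).

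Psmc5 and Psmc1 rose under nZFP over DBD in both genotypes, and the control viruses differed in Psmc5 as well. With the index, over the 5 paradigms, Psmc5 under DBD over Estop fell by 0.11 ± 0.02 in zQ175 and by 0.16 ± 0.02 in WT. Under nZFP over Estop in zQ175 Psmc5 rose by 0.06 ± 0.02 with the index and was at 0.06 ± 0.05 without it. In that comparison 1 member was higher and 1 lower without the index (14.5% of all genes), Psmg1 and Psmd1, and 5 and 11 with it (25.3%). In WT striatum nZFP over Estop called no member without the index (5.89% of all genes), where 2 had an unadjusted p under 0.05, and 1 with it (10.6%), Psmd14, which fell by 0.10 ± 0.02.

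The effect of the repressor in zQ175 minus that in WT was tested directly. No member passed in any paradigm (3.27%, 1.99%, 0%, 0.0505% and 0% of all genes called at an adjusted p under 0.05). At an unadjusted p under 0.05 there were 10, 3, 16, 20 and 1 members under edgeR, and DESeq2 called 0. The share of all genes at an unadjusted p is not given, so these counts do not set the members apart. In 6M_10M the zQ175 nZFP and WT DBD groups each held a library that stood apart. With the mouse as a block 1 member passed in 2M_8M, Psme1 (−0.41 ± 0.12). With the index the difference passed for Psmb10 in 2M_6M (−0.45 ± 0.13, 5.53% of all genes), and for Psme1 (−0.28 ± 0.09) and Psmb7 (−0.17 ± 0.05) in 2M_8M (7.67%). With the mouse as a block as well, Psmb10 was not called (−0.47 ± 0.16, adjusted p = 0.14), while Psme1 (−0.28 ± 0.08) and Psmb7 (−0.19 ± 0.05) passed. Over the 5 paradigms with the index it passed for Psmc3ip (−0.16 ± 0.05), Psmd12 (−0.10 ± 0.03) and Psma1 (−0.10 ± 0.03), where 6.82% of all genes were called. Without the index it passed for none (3.68%), and 7 members had an unadjusted p under 0.05.

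Differences between paradigms were tested for 4 pairs, and no member was called. The repressor effect in zQ175 was compared for 2M_8M minus 6M_8M (0.0655% of all genes called), 2M_8M minus 6M_12M (0.0834%) and 6M_12M minus 6M_8M (0.00595%), and the genotype effect under DBD for 6M_12M minus 6M_8M (0.304%). Under edgeR 2, 20, 1 and 0 members had an unadjusted p under 0.05, and DESeq2 called 0. The share of all genes at an unadjusted p is not given for these pairs. Psme1 differed by −0.14 ± 0.16, −0.04 ± 0.16, −0.10 ± 0.16 and 0.07 ± 0.16 in these comparisons.

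The 2 control viruses differed in few members. In zQ175, DBD over Estop gave 3 members higher in 2M_6M (4.50% of all genes called), Psma2, Psmd8 and Psmg4, none of which was called without R3, with the index or with the mouse as a block. None passed in the other paradigms of zQ175 (0.184%, 0.0562%, 0.234% and 0.290%) or in WT (0.108%, 0.196%, 0.188%, 0.669% and 0.167%), where at most 5 members in a paradigm had an unadjusted p under 0.05 under edgeR and DESeq2 called 0. With the index the counts were 0, 0, 0, 0 and 0 in zQ175 (0.510%, 0.481%, 0.0688%, 0.751% and 0.683%) and 0, 0, 0, 1 and 1 in WT (0.255%, 0.912%, 0.325%, 2.78% and 0.812%). Over the 5 paradigms with the index, 1 member was higher and 2 lower in zQ175 (5.85%), and 7 were lower in WT (7.26%), all 7 of them genes of the 19S cap.

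Levels of Psmb8 and Psmb9, the inducible counterparts of Psmb5 and Psmb6, were high in some libraries of 6M_8M, the paradigm collected soonest after injection. It held 48 of the 233 libraries (20.6%), and 9 of the 10 with the highest Psmb8 and 7 of the 10 with the highest Psmb9. It also held 9 of the 10 libraries with the highest summed level of 23 interferon response and antigen presentation genes, and 6 of these 10 were among the 10 highest in Psmb9. The median of this sum was 313, 358, 469, 348 and 346 CPM. The library with the most Psmb8 and Psmb9, WT nZFP R8 of 6M_8M, had 20.0 CPM of Psmb8, 7.16 CPM of Psmb9 and a sum of 915 CPM, against medians of 6.44, 2.21 and 469 CPM in its paradigm.

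The high libraries of 6M_8M came from both genotypes and all 3 viruses, and in 2 cases a WT mouse gave 2 of them. The medians of Psmb10 were 10.3, 13.5, 12.9, 11.4 and 11.8 CPM. Relative to Psmb7, Psmb10 averaged 8.09, 9.33 and 8.89% in the nZFP, DBD and Estop groups of WT in 6M_8M, against 6.37 to 7.64% in the WT groups of the other paradigms. Another library high in Psmb9, zQ175 DBD R3 of 2M_6M at 4.47 CPM, had an interferon sum of 307 CPM and a length index of −1.13. Each paradigm is its own set of mice, so time after injection, age and cohort cannot be told apart, and levels were not tested across paradigms. Over all 233 libraries, Cd3e, a marker that defines T cells, averaged 0.026 CPM and was at 0 in 141, and Ifng, the gene for interferon gamma, was at 0 in 205. The T cell genes Cd8a, Trbc2 and Cd3g were at 0 in fewer, 65, 80 and 99. These genes were not examined in the libraries high in Psmb8 and Psmb9.

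**Figure D5:**
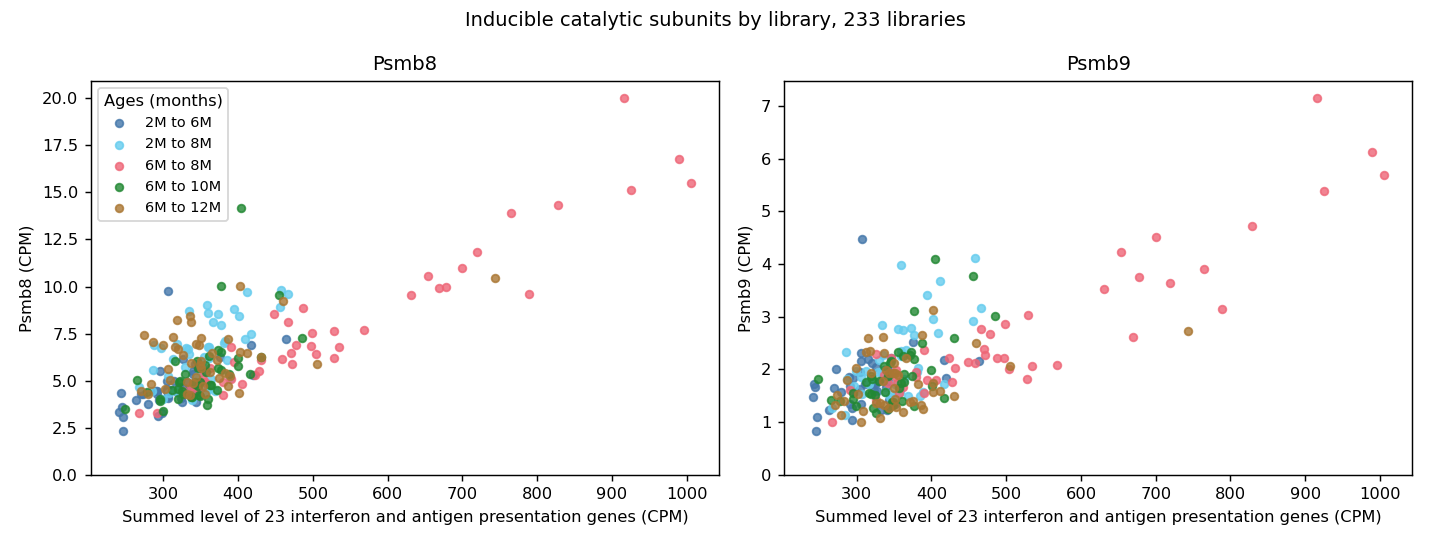
Psmb8 and Psmb9 (CPM) against the summed CPM of 23 interferon response and antigen presentation genes in 233 libraries, coloured by paradigm. The highest sums, up to 1005 CPM, are in libraries of 6M_8M, and the highest sum of another paradigm is 743 CPM.

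Lists of genes outside the rule describe the rest of the pathway, and they were chosen with earlier results of these data known. The shares of all genes called were 28.7%, 18.7%, 9.12%, 24.2% and 18.3% in zQ175 under DBD and 23.2%, 7.06%, 0.112%, 0.972% and 1.25% under nZFP over DBD in zQ175. Of 25 tested ubiquitin-proteasome partners, 3, 4, 0, 3 and 3 were higher and 2, 1, 0, 1 and 1 lower in zQ175 under DBD, and 2, 1, 0, 0 and 0 were higher and 2, 0, 0, 0 and 0 lower under nZFP over DBD in zQ175. In zQ175 under DBD the list's share of genes called was above that of all genes in 2M_8M alone. Ubqln4, a shuttle factor that carries ubiquitinated proteins to the proteasome, fell in zQ175 in all paradigms but 6M_8M, by 0.44 ± 0.08, 0.36 ± 0.06, 0.24 ± 0.05 and 0.37 ± 0.07. Under nZFP over DBD in zQ175 Ubqln4 rose by 0.49 ± 0.08 in 2M_6M and 0.38 ± 0.06 in 2M_8M. Uba1, the main ubiquitin-activating enzyme, rose in zQ175 in 2M_8M, 6M_10M and 6M_12M, by 0.18 ± 0.06, 0.24 ± 0.07 and 0.24 ± 0.05.

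Of 13 genes that control proteasome transcription, 2, 3, 2, 3 and 3 were higher and 2, 0, 1, 1 and 1 lower in zQ175 under DBD, and 3, 0, 0, 0 and 0 were higher and 2, 3, 0, 1 and 1 lower under nZFP over DBD in zQ175. Nfya and Nfyb encode subunits of NF-Y, which binds CCAAT. Nfya rose in zQ175 in all 5 paradigms, by 0.36 ± 0.10, 0.58 ± 0.12, 0.37 ± 0.08, 0.78 ± 0.10 and 0.82 ± 0.16, and Nfyb in all but 6M_8M, by 0.19 ± 0.05, 0.43 ± 0.06, 0.28 ± 0.05 and 0.30 ± 0.09. Under nZFP over DBD in zQ175, Nfya fell by 0.32 ± 0.10 in 2M_6M and 0.52 ± 0.12 in 2M_8M. Of 22 tested interferon and antigen presentation genes, 0, 2, 0, 0 and 4 were higher and 1, 0, 0, 0 and 0 lower in zQ175 under DBD, and 4, 1, 0, 0 and 0 were higher and 0, 0, 0, 0 and 0 lower under nZFP over DBD in zQ175.

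Marker lists of cell types are counted beside the same shares of all genes. Of 15 markers of medium spiny neurons, the main neurons of the striatum, 1, 0, 0, 0 and 0 were higher and 12, 11, 12, 13 and 12 lower in zQ175 under DBD, with list medians between −0.88 and −0.62, and this was the only cell type list whose share called was above that of all genes in every paradigm. Under nZFP over DBD in zQ175, 11, 9, 0, 7 and 4 of them were higher and 2, 1, 0, 1 and 1 lower. Of 15 microglial markers, 0, 0, 0, 0 and 0 were higher and 3, 3, 0, 1 and 1 lower in zQ175 under DBD. Of 10 astrocyte markers, 1, 1, 0, 0 and 2 were higher and 3, 3, 1, 2 and 3 lower. Of 10 oligodendrocyte markers, 1, 1, 0, 1 and 1 were higher and 2, 2, 0, 4 and 2 lower. Of 10 endothelial markers, 0, 0, 0, 0 and 0 were higher and 0, 3, 0, 0 and 2 lower, and of 10 markers of neurons in general, 1, 1, 1, 2 and 2 were higher and 1, 0, 0, 0 and 0 lower. Of the 16 genes listed for lymphocytes, 4 to 7 were tested, and Cd4 alone was called, lower in each paradigm. Cd4 averaged 78.0 CPM and was at least 19.8 CPM in every library, while the T cell genes Cd3e, Cd3g, Cd3d and Trac were at 0 in 99 to 141 libraries. The part of these cell types in the changes of Psme1, Psmb10 and the other members was not tested.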

How the data were processed

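RNA from single striatal hemispheres was sequenced as stranded, paired-end polyA libraries, per the labels' protocols. The authors deposited RSEM expected counts per gene on GRCm38, per the submitters' processing notes. The annotation release, and how the counting treated strand, are not stated (not given in the sources used here). Of the deposited expected counts 90.4% were whole to within 1e-06, and all were rounded before testing. The authors' table named FPKM has 1 fixed sum in all libraries, as TPM has and FPKM does not, so its deposited values were used as TPM, to compare levels between genes. Libraries held 28.0 to 61.3 M counts, and 6 vector entries, at most 0.669% of a library, stayed out of the library sizes and tests.

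Each paradigm's 6 groups were fitted together with sex as a covariate, by edgeR's quasi-likelihood test (4.0.16, R 4.3.3) after filterByExpr and TMM, with Benjamini-Hochberg adjustment over all 15673, 15786, 16000, 15840 and 15523 genes tested. All 30 groups entered 1 fit of 16795 genes for differences between paradigms and for means over them. CPM values use TMM library sizes. The same steps were checked on simulated data. DESeq2 (1.42.0), other controls, filters, blocks and the length index were alternatives, with their effect in the closing section. P-values measure the spread between mice and hemispheres, and a mouse that gave libraries to both groups compared is not modelled in the main fit.

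The mouse, read from the labels, paired 113 pairs of libraries. Their deviations from group means had a median correlation of 0.198 (−0.283 to 0.778), and 77 of 113 were over 0.1. Within groups, the 792 pairs of libraries differed by at least 4.74 times the sampling noise.

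The members and lists were chosen with earlier results of these data known. The text names, for each comparison, up to 5 members per direction called in the most paradigms, with ties ranked by size, and the catalytic subunits, their inducible counterparts, Psme1 and Psme2. Other members named, such as those in counts of 5 or fewer, were chosen after their values were seen. Psmb11 was too low to test. Exonic lengths and overlaps are from the GENCODE annotation given for GRCm38. Promoter sequences are from RefSeq (GRCm38.p6).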

Additional observations from a re-analysis of the deposited data

Results flagged for a closer look

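In 16 of 90 checks of the 30 groups for Psme1, Psme2 and Psmb10, 1 library lay further from its group than Dixon's 95% limit allows, where chance gives about 1 in 20. For Psme1 these libraries had 86.0 CPM in zQ175 DBD R3 of 2M_6M (next 35.7), 36.4 CPM in WT nZFP R5 of 2M_8M (next 27.5), 44.1 CPM in zQ175 DBD R8 of 6M_8M (next 36.5), 45.0 CPM in WT DBD R2 of 6M_10M (next 23.0), 28.9 CPM in WT nZFP R2 of 6M_10M (next 23.8), 42.1 CPM in zQ175 DBD R1 of 6M_10M (next 33.7) and 64.4 CPM in zQ175 nZFP R2 of 6M_10M (next 32.4). For Psme2 they had 80.4 CPM in zQ175 DBD R3 of 2M_6M (next 26.3), 39.4 CPM in WT nZFP R8 of 6M_8M (next 23.5), 47.8 CPM in WT DBD R2 of 6M_10M (next 20.4), 63.5 CPM in zQ175 nZFP R2 of 6M_10M (next 26.4) and 35.6 CPM in zQ175 nZFP R1 of 6M_12M (next 29.3). For Psmb10 they had 58.5 CPM in zQ175 DBD R3 of 2M_6M (next 15.5), 19.9 CPM in WT nZFP R8 of 6M_8M (next 11.7), 23.7 CPM in WT DBD R2 of 6M_10M (next 10.8) and 38.2 CPM in zQ175 nZFP R2 of 6M_10M (next 13.9). In each case the library was the highest of its group. The same 3 libraries, zQ175 DBD R3 of 2M_6M, WT DBD R2 of 6M_10M and zQ175 nZFP R2 of 6M_10M, stood out for all 3 genes, and they had the 3 lowest length indices of all libraries, between −1.21 and −1.05. The library WT nZFP R8 of 6M_8M stood out for Psme2 and Psmb10, and it also had the most Psmb8 and Psmb9 of all libraries.

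The effect of nZFP over DBD differed between the genotypes by the interaction test with the length index as a covariate for 3 members. The effect in zQ175 minus that in WT was −0.45 for Psmb10 in 2M_6M, and −0.17 for Psmb7 and −0.28 for Psme1 in 2M_8M, on the log2 scale. With the mouse as a block as well as the index, Psmb10 did not pass (−0.47 ± 0.16, adjusted p = 0.14). Without the index no member passed this test.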

How the results depend on the processing

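The number of members called (adjusted p under 0.05) was 14, 2, 3, 3 and 2 for zQ175 over WT under DBD, 0, 2, 4, 7 and 3 under nZFP, 16, 0, 0, 0 and 0 for nZFP over DBD in zQ175 and 0, 3, 1, 0 and 0 in WT, 3, 0, 0, 0 and 0 for DBD over Estop in zQ175, and 0 in each paradigm for DBD over Estop in WT and for the interaction. With size factors of DESeq2 in place of TMM all 39 counts stayed within 1.5 times these. Under the following settings a count moved by more, and the cause was not tested. The counts in this section have no share of all genes beside them, and a count alone does not set the members apart from other genes. The DESeq2 test gave 1 for nZFP over DBD in zQ175 in 6M_10M, 6 and 2 for nZFP over DBD in WT in 2M_8M and 6M_8M, 9 for DBD over Estop in zQ175 in 2M_6M. Without a filter on low counts there were 8 for zQ175 over WT under DBD in 2M_6M, 0 for zQ175 over WT under nZFP in 2M_8M, 7 for nZFP over DBD in zQ175 in 2M_6M, 0 for DBD over Estop in zQ175 in 2M_6M. With Estop as the control there were 2 for zQ175 over WT in 2M_6M, 0 for nZFP over control in zQ175 in 2M_6M, 0 and 0 for nZFP over control in WT in 2M_8M and 6M_8M, and Psmb5 and Psme2, which fell in 2M_6M under nZFP over DBD in zQ175, were at 0.020 and 0.018 over Estop. With Estop and the length index there were 6, 12, 7, 13 and 13 for zQ175 over WT in 2M_6M, 2M_8M, 6M_8M, 6M_10M and 6M_12M, 8, 6, 1 and 3 for nZFP over control in zQ175 in 2M_6M, 2M_8M, 6M_10M and 6M_12M, 0 and 0 for nZFP over control in WT in 2M_8M and 6M_8M, 2 and 2 for the interaction in 2M_6M and 2M_8M. With the length index there were 8, 11, 13 and 11 for zQ175 over WT under DBD in 2M_6M, 2M_8M, 6M_10M and 6M_12M, 1, 8, 13 and 7 for zQ175 over WT under nZFP in 2M_6M, 2M_8M, 6M_10M and 6M_12M, 6, 5, 1 and 2 for nZFP over DBD in zQ175 in 2M_6M, 2M_8M, 6M_10M and 6M_12M, 1 and 1 for nZFP over DBD in WT in 2M_8M and 6M_10M, 0 for DBD over Estop in zQ175 in 2M_6M, 1 and 1 for DBD over Estop in WT in 6M_10M and 6M_12M, 1 and 2 for the interaction in 2M_6M and 2M_8M. Averaged over the 5 paradigms with the index, the counts were 25 for zQ175 over WT under DBD, 24 for zQ175 over WT under Estop, 12 for zQ175 over WT under nZFP, 17 for nZFP over DBD in zQ175, 7 for nZFP over DBD in WT, 16 for nZFP over Estop in zQ175, 1 for nZFP over Estop in WT, 3 for DBD over Estop in zQ175, 7 for DBD over Estop in WT, 3 for the interaction, against 11, 10, 7, 3, 3, 2, 0, 0, 0 and 0 without it. Without the libraries that went against their labels there were 6 for zQ175 over WT under DBD in 6M_8M, 2 for nZFP over DBD in WT in 6M_8M, 1 for DBD over Estop in zQ175 in 2M_6M. Without the libraries that stood apart there were 6 and 8 for zQ175 over WT under DBD in 2M_6M and 6M_10M, 1 for zQ175 over WT under nZFP in 2M_6M, 4 for nZFP over DBD in zQ175 in 2M_6M, 0 for DBD over Estop in zQ175 in 2M_6M.

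With the mouse as a block, which pairs the libraries of 1 mouse, there were 0 for nZFP over DBD in zQ175 in 2M_6M, 0 for nZFP over DBD in WT in 6M_8M, 0 for DBD over Estop in zQ175 in 2M_6M, 1 for the interaction in 2M_8M. With the mouse block and the length index there were 4, 3 and 3 for nZFP over DBD in zQ175 in 2M_6M, 2M_8M and 6M_12M, 1 and 0 for nZFP over DBD in WT in 2M_8M and 6M_8M, 0 and 1 for DBD over Estop in zQ175 in 2M_6M and 2M_8M, 1 for DBD over Estop in WT in 2M_8M, 2 for the interaction in 2M_8M. The mouse block moved no other count by more than 1.5 times. The labels' replicate numbers matched in 59 of the 113 mice with 2 libraries, so a block on the number shares mice only in part. With it there were 7, 5 and 8 for zQ175 over WT under DBD in 2M_6M, 6M_10M and 6M_12M, 27 for zQ175 over WT under nZFP in 6M_12M, 7, 1, 1 and 13 for nZFP over DBD in zQ175 in 2M_6M, 2M_8M, 6M_10M and 6M_12M, 0 for DBD over Estop in zQ175 in 2M_6M.

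Of the called member effects named in the text, those that lost their call or turned sign numbered 13 of 14 with the mouse block, 11 of 14 with the mouse block and the index, 19 of 26 with Estop as the control (2 turned sign), 10 of 26 with Estop and the index, 12 of 42 with the index, 11 of 42 without a filter, 12 of 23 without the libraries that stood apart, 6 of 42 with the block on the replicate number, 4 of 24 without the libraries against their labels, 1 of 42 with DESeq2 size factors and 0 of 40 with the DESeq2 test. Psmb9, Psma8, Psme2b and Psmb11 had the lowest TPM of the members, which limits what could be detected in them. Replicates were not left out in turn, because groups held 6 to 8 libraries. The alternatives with the index and Estop together, the index and the mouse block together, and the mean of the paradigms were added after seeing the data.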
